A study of Mus musculus with 6 samples.

Results

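The core pluripotency genes Pou5f1, Sox2, Nanog, Sall4, Utf1, Dppa2, Dppa4 and Dppa5a were taken by symbol from a table of 21639 gene entries measured by RNA-Seq in mouse embryonic stem cells (ESCs) and embryoid bodies (EBs). Of the 8 genes, 7 have an entry of their own. Nanog is listed only in an entry that it shares with Nanogpd, a Nanog pseudogene, and each value given for Nanog is that of the joint entry. The libraries came from 3 ESC lines that differ in the histone variant H2A.Z, which replaces H2A in nucleosomes at many promoters, and the design asks how the variant and its acidic patch, a negatively charged surface, bear on gene expression before and during differentiation. Each line was sequenced once as ESCs (D0) and once as EBs at day 3 (D3), which gives 6 libraries with 1 library for each condition.

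All of the libraries carry the strain label V6.5 (129SvJaexC57BL/6), while the protocol places the transgenes in KH2 ESCs. H2AZ WT and H2AZ-AP3 cells express H2A.Z fused to YFP from a doxycycline-inducible CMV promoter, with doxycycline at 1 µg/ml and sorting of YFP-positive cells. The AP3 form carries G92N, D97N and S98K, which bring in the residues of H2A. Hairpins against the 3′ UTR of the endogenous gene were also introduced into both of these transgenic lines. The study's methods place the knockdown hairpins in the inducible lines, and whether a transgene was induced in the cells labelled H2AZ KD for RNA-Seq is not given in the sources used here. ESCs were kept on fibroblast feeders until a last passage without them, and EBs formed in non-adherent plates without LIF, the cytokine that maintains ESCs. No condition was repeated, so that a difference between 2 libraries has no replicate check and is given without a p-value, and a difference between lines cannot be told apart from one between cultures. A fit with line and day as additive terms, which the layout would allow with 2 residual degrees of freedom, was not run.

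Pluripotency, the capacity to form every tissue of the embryo, is maintained in ESCs by a small circuit of transcription factors. OCT4 (the product of Pou5f1) and SOX2 bind next to each other at a composite DNA element, and with NANOG they occupy their own regulatory regions and those of many ESC genes. SALL4 and UTF1 work on the same chromatin, while DPPA2, DPPA4 and the RNA-binding protein DPPA5A are abundant in ESCs and early embryos. In embryos and EBs the circuit is lost gradually as lineages form, and Pou5f1 stays on in the epiblast longer than Nanog.

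Letters that match the core motifs of OCT4 and SOX2 were looked for near the start sites of the members. The RefSeq promoter table for GRCm38.p6 holds 6 windows for 4 of the 8 genes (Pou5f1, Sox2, Nanog and Utf1), each from 250 bases before to 50 bases after a start site. Both strands were searched for the octamer core ATGCAAA, for the SOX core CATTGT, and for the composite CATTGT, any 1 base, ATGCAAA, which contains both cores. The octamer core stands in 4.63% of the 32851 windows of the table, and the SOX core in 12.6%. Only 2 of all windows hold the composite, and both belong to Nanog, since they are overlapping windows of 2 start sites around the same bases. In the 30-base stretches that follow, read on the plus strand, capitals mark the composite of Nanog at chr6:122707406-122707435, the octamer core of Sox2 at chr3:34649885-34649914, and the SOX core before the second start of Pou5f1 at chr17:35508637-35508666.
Nanog: cagcttctTTTGCATTACAATGtccatggt
Sox2: cgccccctttcATGCAAAaccctctggcga
Pou5f1: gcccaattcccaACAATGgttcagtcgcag
The Nanog composite lies on the minus strand, so that its 2 cores appear reversed, and its outer end is 75 bases before the nearer start site. The octamer core of Sox2 begins 99 bases before the start, and the SOX core of Pou5f1 begins 158 bases before its second start. No window of Utf1 holds these letters. A match describes the letters of the window, and binding was not measured here.

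Levels are given in RPKM, the reads of a gene scaled by its length and by the mapped reads of its library. Estimated depths were between 16.6 and 28.45 M reads, although the lowest, that of H2AZ WT ESCs, came to 34.4 M when only longer transcripts were used. At the main estimates 961 to 20711 reads stood behind each member's level, so that the 95% counting interval of a level was at most ±6.32% of it, and the other estimate would raise the read numbers of H2AZ WT ESCs. These intervals cover counting error only and say nothing of the spread between cultures. H2afz, the gene targeted by the hairpins, was at 279 RPKM in H2AZ WT ESCs and at 343 in the library labelled H2AZ KD at D0, and at D3 the values were 258 and 236. In H2AZ-AP3 it was at 304 RPKM at D0 and 394 at D3. Its log2 change in H2AZ-AP3 at D3 was 0.61 against H2AZ WT and 0.74 against the library labelled H2AZ KD, both past 1.5-fold. The entry also counts any transgene reads from the H2A.Z coding sequence. A knockdown past 1.5-fold was therefore not visible in this table on either day, and the 2 libraries labelled H2AZ KD are called by their label throughout.

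All 8 genes were highly expressed in the 6 libraries, and their ranks among the 21639 entries ran from 40 (Dppa5a) to 3654 (Dppa2). Together they made up 0.564% of the summed RPKM in H2AZ WT ESCs, 0.532% in the library labelled H2AZ KD and 0.515% in H2AZ-AP3 ESCs. In EBs their share was 0.487%, 0.408% and 0.452% in the same order. The order by level was Dppa5a, Pou5f1, Sox2 and Utf1, Nanog, Dppa4, Sall4 and Dppa2 in each library, except that Sox2 and Utf1 changed places. Sox2 was above Utf1 in H2AZ WT ESCs and in the D0 library labelled H2AZ KD and below it in the other 4, and in H2AZ WT ESCs their counting intervals overlapped. Nanog and Dppa4 overlapped in the same way in H2AZ-AP3 ESCs. The highest level of a gene over its lowest was between 1.22-fold for Dppa4 and 1.84-fold for Nanog.

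**Figure D1:**
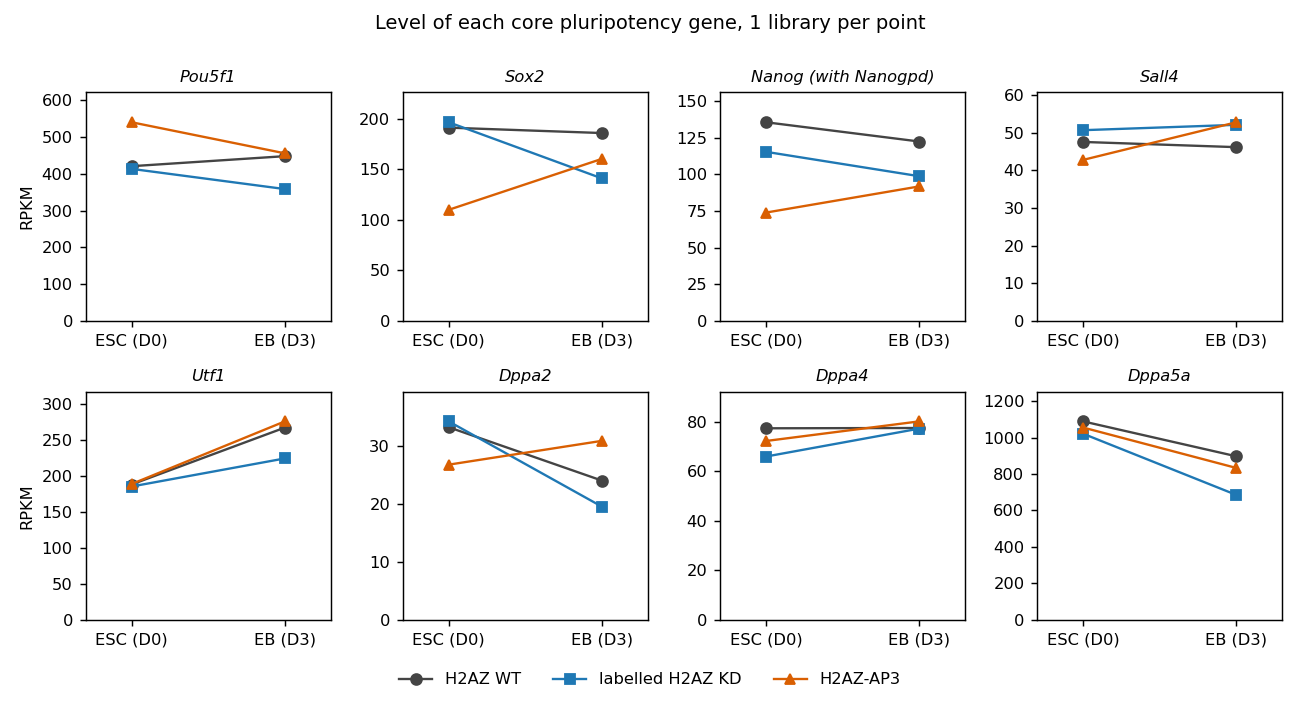
RPKM of each core pluripotency gene (vertical axes from 0) in ESCs at D0 and EBs at D3, with 1 library per point and a line joining the 2 libraries of each ESC line. Sox2 and Nanog are lowest in H2AZ-AP3 ESCs, at 110 and 73.9 RPKM, whereas Utf1 is higher and Dppa5a lower in EBs of each line.

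Pou5f1 (ENSMUSG00000024406.9, chr17:35642984-35647722 of mm9, plus strand, 5 exons) encodes OCT4, the POU factor that the inner cell mass needs to become pluripotent. Its level in ESCs was 421 RPKM in H2AZ WT, 413 in the library labelled H2AZ KD and 540 in H2AZ-AP3. In EBs it was 448, 358 and 456 RPKM. The H2AZ-AP3 ESC library stood above the other 5, and the EB library labelled H2AZ KD stood below them. Neither difference from H2AZ WT of the same day passed 1.5-fold, with a log2 change of 0.36 for H2AZ-AP3 at D0 and -0.32 for the library labelled H2AZ KD at D3.

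Sox2 (ENSMUSG00000074637.3, chr3:34548927-34551383, plus strand) encodes the HMG-box partner of OCT4 and has a single exon of 2457 bases. It lies inside the long noncoding gene Sox2ot on the same strand, the table gives both entries the same span of 117.6 kb, and whether the reads were counted by strand is not given in the sources used here. In ESCs Sox2 was at 191 RPKM in H2AZ WT, 196 in the library labelled H2AZ KD and 110 in H2AZ-AP3, and in EBs at 186, 141 and 160. H2AZ-AP3 ESCs held the lowest Sox2 level of the 6 libraries, and H2AZ-AP3 EBs lay between the other lines. Sox2ot was far less abundant, at 0.426 to 1.41 RPKM, and it too was lowest in H2AZ-AP3 ESCs.

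Nanog (ENSMUSG00000012396.5, chr6:122657586-122663796, plus strand, 4 exons) encodes a homeodomain protein that sustains self-renewal and varies from cell to cell in ESC cultures. The joint entry was at 136 RPKM in H2AZ WT ESCs, 115 in the library labelled H2AZ KD and 73.9 in H2AZ-AP3 ESCs, and at 123, 98.8 and 91.8 RPKM in the EBs. Both H2AZ-AP3 libraries were therefore below the other 4, a pattern found in 4.82% of all entries. The reverse, both H2AZ-AP3 libraries above the other 4, held for 4.99% of all entries and for Pou5f1 among the members. Pou5f1 lost this pattern when libraries were rescaled to the same sum or on 5 control genes. Nanog kept its own under each of the 3 other scalings tried, but on the control genes Sox2 and Sall4 showed it too, as did 8.71% of all entries.

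Sall4 (ENSMUSG00000027547.11, chr2:168573832-168592701, minus strand, 4 exons) encodes a zinc finger protein of the inner cell mass that interacts with OCT4 and NANOG. It was among the steadiest members, at 47.6, 50.7 and 42.8 RPKM in ESCs of H2AZ WT, the line labelled H2AZ KD and H2AZ-AP3, and at 46.2, 52.1 and 52.8 RPKM in their EBs. Utf1 (ENSMUSG00000047751.8, chr7:147129755-147131011, plus strand, 2 exons) encodes a chromatin-bound protein and is a known target of OCT4 and SOX2. Its levels were 188, 185 and 189 RPKM in ESCs and 267, 225 and 276 RPKM in EBs, in the same order of lines. Utf1 hardly differed between the lines as ESCs and was higher in EBs of all 3.

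Dppa4 (ENSMUSG00000058550.7, chr16:48283848-48294405, 7 exons) and Dppa2 (ENSMUSG00000072419.4, chr16:48310387-48319626, 7 exons) are neighbours on the plus strand with 15981 bases between their entries, and their SAP-domain proteins bind each other and act at promoters that carry both activating and repressive histone marks. Dppa4 was at 77.3, 65.9 and 72.2 RPKM in ESCs and at 77.4, 77.2 and 80.1 RPKM in EBs of H2AZ WT, the line labelled H2AZ KD and H2AZ-AP3. Dppa2 was at 33.2, 34.2 and 26.8 RPKM in ESCs and at 24.0, 19.5 and 30.9 RPKM in EBs. Although the genes are adjacent, Dppa4 had the narrowest range of the 8 and Dppa2 was, after Nanog and Sox2, the most variable, with its highest level 1.76-fold over its lowest. Dppa5a (ENSMUSG00000060461.5, chr9:78214861-78216006, minus strand, 3 exons) encodes a KH-domain RNA-binding protein and had the highest level of the 8 genes in each library, at 1089, 1021 and 1055 RPKM in ESCs and 897, 685 and 833 RPKM in EBs.

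A member was called changed between 2 libraries when the ratio of its levels, each with 0.001 RPKM added, passed 1.5-fold, a log2 change beyond 0.58 in either direction. Over 9 comparisons the 8 genes gave 72 log2 changes, of which 6 passed. Calls over all entries are mostly of low entries, so the share among entries averaging 20 RPKM or more is given as well where a member was called.

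H2AZ-AP3 was first compared with H2AZ WT in ESCs. Sox2 and Nanog were lower in H2AZ-AP3 ESCs, by 1.74-fold and 1.84-fold, and the other 6 genes did not pass the threshold. The log2 change of Sox2 was -0.80 (95% counting interval, -0.85 to -0.75) and that of Nanog -0.88 (-0.93 to -0.82). Pou5f1 went the other way, with a log2 change of 0.36, and the remaining genes lay between -0.31 for Dppa2 and 0.0049 for Utf1. None of the 8 was called higher and 2 were called lower, where 11.1% of all entries were called higher and 13.9% lower. Among the 3589 entries averaging 20 RPKM or more 1.84% were called lower, and 0.557% had a log2 change as low as that of Sox2 and 0.446% one as low as that of Nanog. The median of the members was -0.13, and that of the entries averaging 20 RPKM or more was 0.02. Under the scalings, pseudocounts and filters tried, Sox2 stayed between -0.88 and -0.74 and Nanog between -0.96 and -0.81. Without the joint entry only Sox2 is left.

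**Figure D2:**
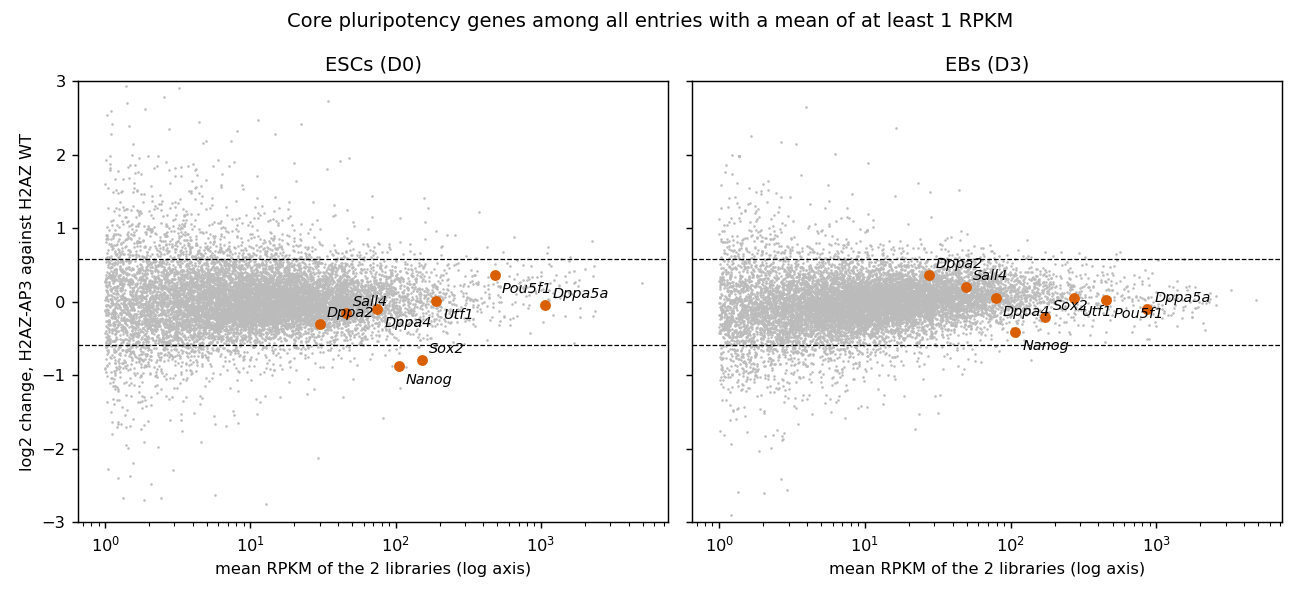
Log2 change of H2AZ-AP3 against H2AZ WT (vertical axes) by mean RPKM of the 2 libraries (horizontal log axes) in ESCs and EBs, with the core pluripotency genes in orange, the other entries averaging 1 RPKM or more in grey and dashed lines at 1.5-fold. Entries beyond a log2 change of 3 fall outside the axes, and Sox2 (-0.80) and Nanog (-0.88) lie under the lower line in ESCs while no core gene is past either line in EBs.

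Ratios between members restate these levels in a form that no scaling of a whole library can move. Since Pou5f1 was at its highest in H2AZ-AP3 ESCs, ratios over Pou5f1 differ more between lines than Sox2 and Nanog do on their own. Sox2 was at 0.454 of the Pou5f1 level in H2AZ WT ESCs, at 0.475 in the library labelled H2AZ KD and at 0.203 in H2AZ-AP3 ESCs. In EBs the ratios were 0.415, 0.393 and 0.352. Nanog was at 0.323, 0.279 and 0.137 of the Pou5f1 level in ESCs and at 0.273, 0.276 and 0.201 in EBs. The H2AZ-AP3 library was the lowest of the day for both ratios, by a wider margin in ESCs than in EBs. The ratio of Nanog to Sox2 moved less, and its value of 0.673 in H2AZ-AP3 ESCs lay between those of the other ESC libraries.

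**Figure D3:**
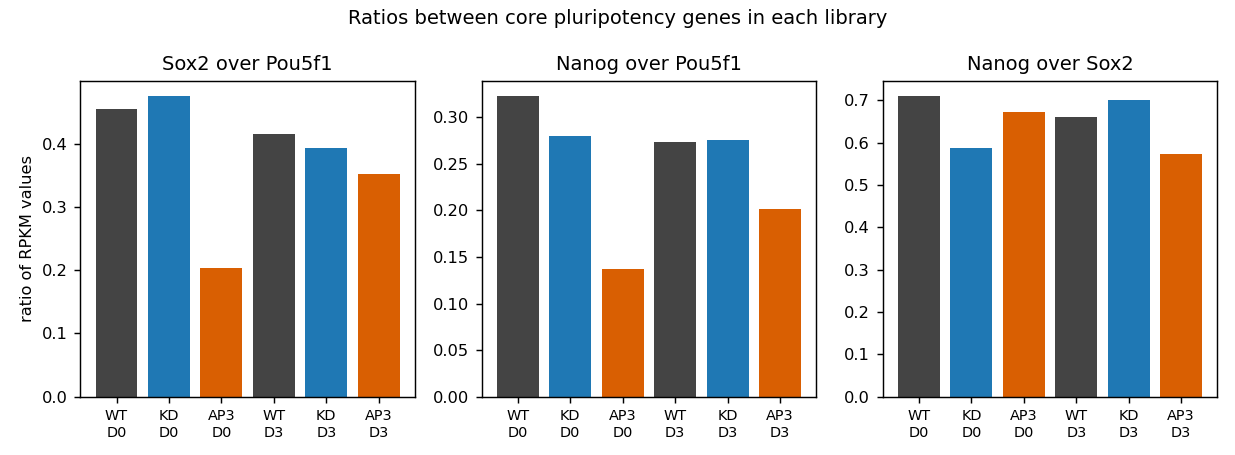
Ratios of RPKM between Sox2, Nanog and Pou5f1 (bars from 0) in each of the 6 libraries, in grey for H2AZ WT, blue for the line labelled H2AZ KD and orange for H2AZ-AP3. Sox2 over Pou5f1 is 0.203 and Nanog over Pou5f1 0.137 in H2AZ-AP3 ESCs, the lowest bar in those 2 panels.

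Markers of other cells also differed between these 2 ESC libraries. The summed level of 8 primitive endoderm markers was 17.3 RPKM in H2AZ WT ESCs, 22.5 in the library labelled H2AZ KD and 50.0 in H2AZ-AP3 ESCs, and 6 of the 8 were called higher in H2AZ-AP3 than in H2AZ WT. The sum of 8 fibroblast markers was 35.2, 31.0 and 55.1 RPKM in the same order, and 5 of them were called higher and 1 lower. The endoderm markers Afp and Ttr were at 0 in both libraries. Of the fibroblast markers Lum was at 0 in H2AZ WT ESCs and 0.333 RPKM in H2AZ-AP3 ESCs, and Postn at 0.112 and 0, so that 1 of the calls higher and the call lower rest on a library at 0. Of 5 epiblast markers 2 (Fgf5 and Otx2) were called lower and none higher in H2AZ-AP3 ESCs. The part of these cells in the levels of Sox2 and Nanog was not tested, and in bulk RNA fewer cells of a type and less RNA per cell cannot be told apart.

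In EBs the same comparison called none of the 8 genes in either direction, beside 10.4% of all entries higher and 11.7% lower. The largest changes were -0.42 for Nanog and 0.36 for Dppa2, and Sox2 was at -0.21. Nanog and Sox2 had the 2 lowest log2 changes on both days. Scaling the libraries on 5 control genes shifted this comparison by -0.32, which put Nanog at -0.74, past the threshold, and turned the small positive values of Pou5f1, Sall4, Utf1 and Dppa4 negative. The control genes themselves had log2 changes from 0.04 (Cltc) to 0.58 (Gapdh) in this comparison. The change of Sox2 was 0.59 less negative at D3 than at D0 on the log2 scale, and this difference has no test. Of the endoderm markers 2 (Dab2 and Sox7) were called higher and 2 (Afp and Ttr) lower in H2AZ-AP3 EBs, with a median of -0.13, and their sums of 80.1 RPKM in H2AZ WT and 109 in H2AZ-AP3 differed through Dab2, at 41.8 and 70.3 RPKM. Of the fibroblast markers 3 were called higher and 1 lower, while their sums were 15.5 RPKM in H2AZ WT and 12.3 in H2AZ-AP3. The marker called lower was Thy1, at 9.19 and 3.56 RPKM. Of the calls higher, that of Lum rests on a level of 0 in H2AZ WT EBs.

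The library labelled H2AZ KD was next set against H2AZ WT. At D0 no member was called, beside 8.96% of all entries higher and 10.7% lower, and the log2 changes ran only from -0.23 (Nanog and Dppa4) to 0.09 (Sall4). At D3 again no member was called, with 9.41% of entries higher and 11.3% lower. However, 6 of the 8 genes were below their H2AZ WT level at D3 under each scaling tried, from -0.40 for Sox2 and -0.39 for Dppa5a to -0.25 for Utf1. Dppa4 was at -0.0046, with a counting interval that includes 0, and the members' median was -0.31 where that of the entries averaging 20 RPKM or more was -0.02. Sall4 alone was above, at 0.17. At D3 the endoderm markers were at 198 RPKM in this library and at 80.1 in H2AZ WT EBs, of which Dab2 made up 129 and 41.8 RPKM. Of the endoderm markers 6 of 8 were called higher, while 6 of 8 fibroblast markers were called lower. Their part in the members' values was not tested.

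Set against the library labelled H2AZ KD, which is the same H2AZ-AP3 ESC library as above with another partner, Sox2 and Nanog were again the genes called lower, with log2 changes of -0.84 and -0.64. The call of 2 of 8 genes lower and 0 higher stands beside 13.5% of all entries in each direction, and beside 3.45% called lower among entries averaging 20 RPKM or more. Pou5f1 was at 0.39. In EBs Dppa2 was called higher, at 0.66 (95% counting interval, 0.54 to 0.78), and no gene was called lower. Of all entries 11.6% were called higher and 11.1% lower, and 3.40% of those averaging 20 RPKM or more were called higher. Dppa2 was under the threshold, at 0.46 at the lowest, when the libraries were rescaled to a common sum or on the control genes. In the same comparison 6 of 8 endoderm markers were called lower, and 6 of 8 fibroblast markers higher and 1 lower, and their part in the Dppa2 value was not tested.

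**Figure D4:**
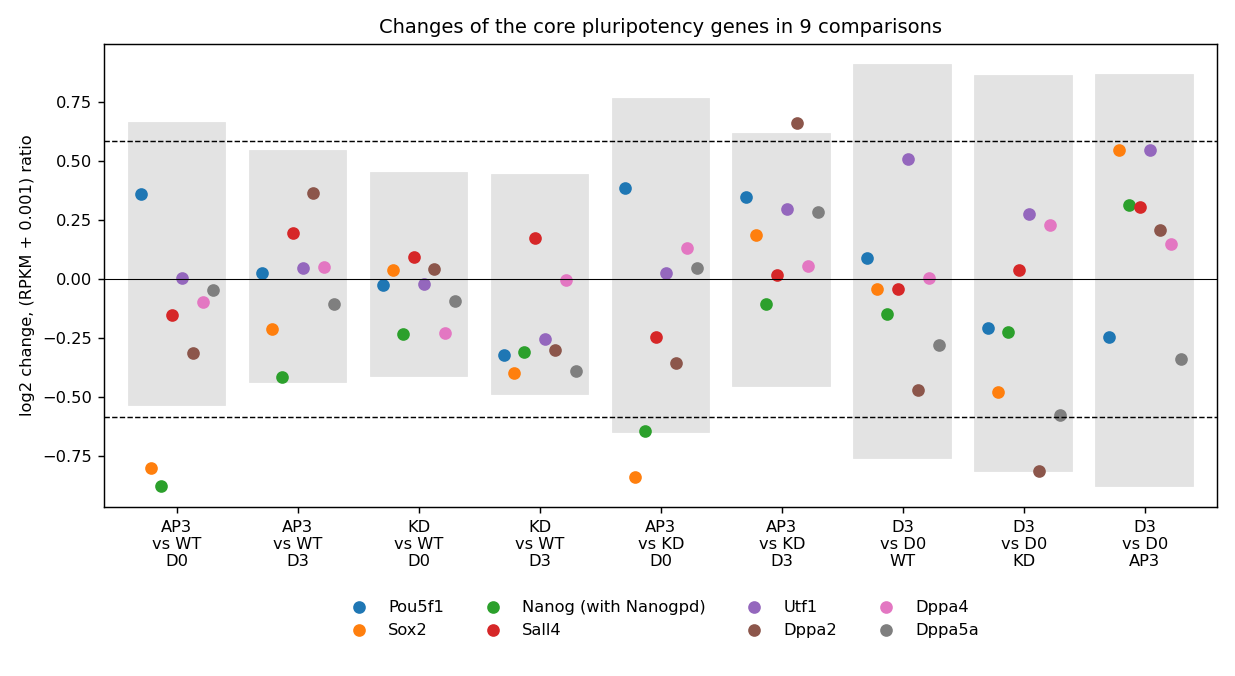
Log2 change of the 8 core pluripotency genes (colours) in each of 9 comparisons, with dashed lines at 1.5-fold and grey boxes for the central 95% of the entries averaging 20 RPKM or more. Sox2 and Nanog in both D0 comparisons of AP3, and Dppa2 in AP3 against KD at D3 and in D3 against D0 of KD, are past the lines.

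From ESCs to EBs the core gene called was Dppa2, in the line labelled H2AZ KD. In H2AZ WT none of the 8 was called, beside 14.1% of all entries higher and 16.5% lower in EBs, and the log2 changes ran from -0.47 for Dppa2 to 0.51 for Utf1. Pou5f1, Sox2, Nanog, Sall4 and Dppa4 lay within 0.15 of 0. When libraries were rescaled to a common sum Dppa2 was called lower in H2AZ WT too, at -0.60. In the line labelled H2AZ KD, Dppa2 was called lower at -0.81 (95% counting interval, -0.93 to -0.69), while 14% of all entries were called higher and 16.2% lower. Of entries averaging 20 RPKM or more 4.65% were called lower. Dppa5a, at -0.58, was just short of the threshold with a 1.49-fold difference, and Sox2 was at -0.48. Scaling on the control genes called these 3 genes lower, with values down to -0.96 for Dppa2, -0.72 for Dppa5a and -0.63 for Sox2. In H2AZ-AP3 none of the 8 was called, beside 14.7% of all entries higher and 16.3% lower, with Utf1 and Sox2 at 0.55 and Dppa5a at -0.34. Scaling on the control genes called Pou5f1 (-0.60) and Dppa5a (-0.69) lower there, moved the members' median from 0.25 to -0.096, and turned Nanog, Sall4, Dppa2 and Dppa4 from positive to negative.

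Utf1 and Dppa5a were separated by day across the lines. All 3 EB libraries were above all 3 ESC libraries for Utf1, a pattern found in 12.7% of all entries, and below them for Dppa5a, a pattern found in 11.6%. With 1 of 8 members in each, these patterns were about as frequent among the members as among all entries. Both patterns held for these genes under each scaling tried, with shares of all entries of 5.68% and 16.8% on the control genes. The lower pattern also held for Pou5f1 under the common sum and for Dppa2 on the control genes. For Sox2 the changes were -0.041 in H2AZ WT, with a 95% counting interval of -0.084 to 0.0024 that includes 0, -0.48 in the line labelled H2AZ KD and 0.55 in H2AZ-AP3, where the D0 level was the low one. For Nanog they were -0.15, -0.23 and 0.31, none of these 6 values passed the threshold, and their differences were not tested. The 5 epiblast markers, which mark the stage after implantation, had sums of 39.0 to 51.4 RPKM in ESCs and 114 to 143 RPKM in EBs, and 4 of 5 were called higher in the EBs of each line. All 8 endoderm markers were called higher in EBs of H2AZ WT and of the line labelled H2AZ KD and 5 of 8 in H2AZ-AP3, while 5, 7 and 6 of 8 fibroblast markers were called lower and 1 higher. Their part in the members' changes was not tested. Streak and mesoderm markers had sums of 1.79 to 3.51 RPKM, and 3, 2 and 2 of 6 were called higher and 0, 1 and 1 lower in EBs of H2AZ WT, the line labelled H2AZ KD and H2AZ-AP3. Mesp1 was at 0 in the ESCs of H2AZ WT and of the line labelled H2AZ KD and in H2AZ-AP3 EBs. Its call in each line therefore rests on a library at 0. Neural markers had sums of 15.5, 17.2 and 12.2 RPKM in ESCs and 18.4, 13.4 and 24.0 RPKM in EBs, in the same order of lines. Their part in the Sox2 values was not tested.

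Other genes of the network are given by counts. Of 9 genes bound by OCT4, SOX2 or NANOG in ESCs, 1 was called lower and none higher in H2AZ-AP3 ESCs against H2AZ WT, with a median log2 change of -0.29, where all entries had 11.1% called higher and 13.9% lower. The gene called was Lefty1, an inhibitor of Nodal signalling, at 47.8 RPKM in H2AZ WT and 10.9 in H2AZ-AP3. In EBs Lefty1 was called the other way, at 95.1 and 146.8 RPKM, and was the only gene of the list called. Of 11 naive pluripotency factors with an entry, 3 were called lower and none higher, with a median of -0.16, and of 8 other ESC-enriched genes 4 were called lower and none higher, with a median of -0.36. In EBs 4 of the naive factors were called lower and none higher, with a median of -0.32, and of the ESC-enriched genes 1 (Gdf3) was called higher and none lower, with a median of 0.13. Klf2 and Prdm14, which support the naive state, were called lower in H2AZ-AP3 on both days. From ESCs to EBs 3, 8 and 5 of the 11 naive factors were called lower in H2AZ WT, the line labelled H2AZ KD and H2AZ-AP3, and none higher, beside 16.5%, 16.2% and 16.3% of all entries lower. The lists were not tested against each other.

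**Figure D5:**
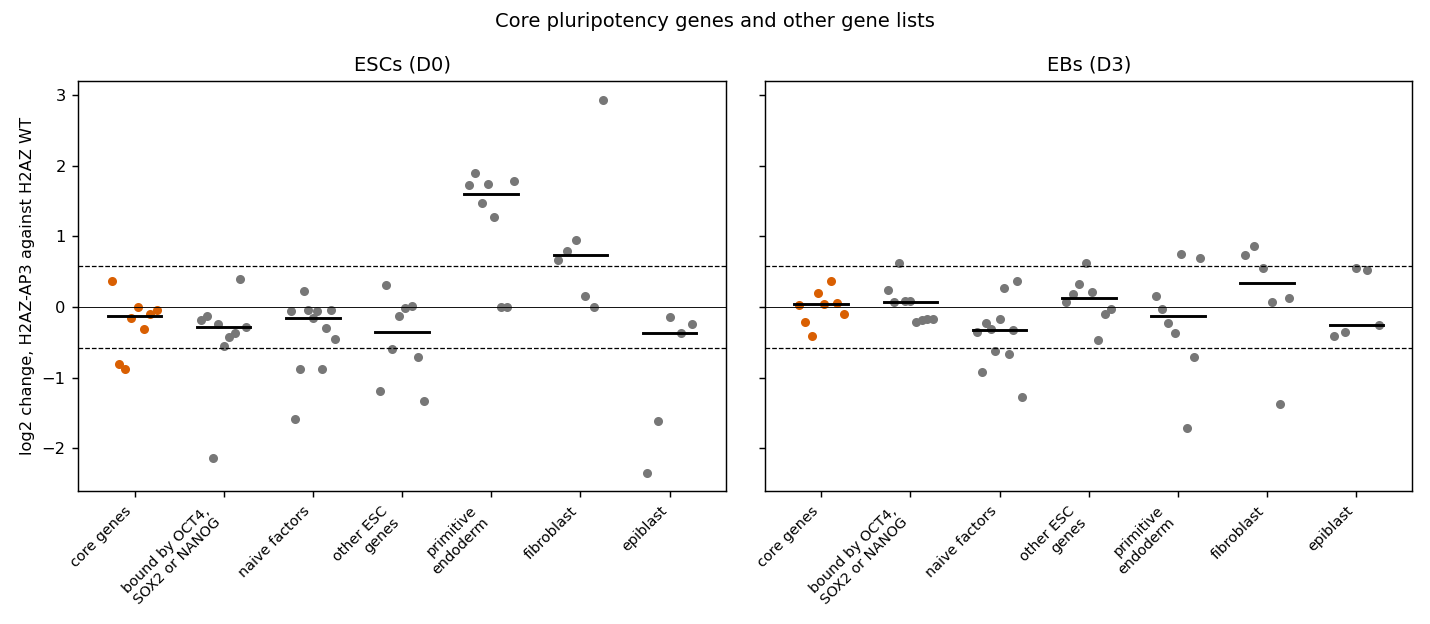
Log2 change of H2AZ-AP3 against H2AZ WT in ESCs and EBs for the core genes (orange) and other gene lists (grey), drawn where a gene reached 1 RPKM in any library, with black bars at list medians and dashed lines at 1.5-fold. The core genes have a median of -0.13 in ESCs and 0.04 in EBs, and primitive endoderm markers are mostly above the upper line in ESCs.

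Family relatives of the members were read in the same way. Among 9 relatives with an entry, Sox15, Sall3 and Ooep were called lower in H2AZ-AP3 ESCs against H2AZ WT, with a list median of -0.37, beside 13.9% of all entries called lower. In EBs 1 relative was called higher and 3 lower, beside 10.4% and 11.7% of all entries. Ooep, a KH-domain gene of the Dppa5a family, was at 33.6 RPKM in H2AZ WT ESCs and 16.2 in H2AZ-AP3 ESCs, and at 33.9 and 16.3 in EBs, while Dppa5a was at -0.05 and -0.11 on the log2 scale. Of 5 reported targets of DPPA2 and DPPA4, 4 were called lower in H2AZ-AP3 ESCs against H2AZ WT and 3 in the EBs. Of all entries 13.9% and 11.7% were called lower there. In the library labelled H2AZ KD against H2AZ WT at D3, 4 were called lower and 1 higher, beside 11.3% and 9.41% of all entries. The targets called lower at D3 in either comparison were at 0.339 RPKM or less in H2AZ WT EBs. Those called in H2AZ-AP3 ESCs are Nkx2-5, at 0.681 RPKM in H2AZ WT and 0.280 in H2AZ-AP3 ESCs, and 3 near-identical Zscan4 genes, whose reads may be shared between copies and which were at 2.55 RPKM or less in H2AZ WT ESCs, beside log2 changes of -0.31 for Dppa2 and -0.10 for Dppa4 in ESCs and 0.36 and 0.05 in EBs.

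To find genes with the same pattern, each member's log2 profile over the 6 libraries, centred on its mean, was compared with those of 8255 other entries averaging 5 RPKM or more. The profile of Sox2 was nearest to that of Tcfap2c, a factor of germ cells and trophoblast, with a root-mean-square distance of 0.07 on the log2 scale, and Rcor2, a corepressor of ESCs, ranked 3. Among the members Nanog was nearest to Sox2, at a distance of 0.12, and it ranked 11 of all entries for Sox2 as Sox2 ranked 7 for Nanog. For the other 6 members the rank of the nearest member was between 211 (for Dppa2) and 1926 (for Pou5f1). Nanog itself was nearest to BC005561 and also close to the meiotic cohesin gene Rec8. Sall4 had the closest match of all, to the ATPase gene Vcp at 0.01, with the VCP cofactor gene Nploc4 second. The nearest entries of the others were Os9 for Pou5f1, Mrpl41 for Utf1, Spry2 for Dppa2, Nrbp1 for Dppa4 and Dag1 for Dppa5a. With 6 libraries and 8255 entries close profiles are common, and the distances are a description.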

How the data were processed

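The authors selected poly(A) RNA, prepared Illumina TruSeq libraries and mapped reads to mm9, with TopHat 1.14 (as the submitters' processing notes write the version), Bowtie 0.12.7 and Cufflinks 1.3.0. The deposited table holds RPKM values per gene, which are not counts, and 6 further columns of the authors' log2 ratios between libraries, which were not used. The log2 change of an entry was log2((RPKM + 0.001)/(RPKM + 0.001)) on all 21639 entries, and a change past 1.5-fold was called. No test was run, since each condition has 1 library. Depth was estimated from the steps of low values in 3696 genes with 1 annotated transcript over 1.5 kb, and counting intervals (95%) assume Poisson reads of the longest coding transcript. Gene positions are those of the table, raised by 1 at the start, and of GENCODE for the same assembly (NCBIM37). Promoters came from RefSeq (GRCm38.p6), a different build.

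The members and gene lists were chosen with earlier results of these data known. Each member was named in every library, with the 3 entries nearest in pattern considered for naming. From other lists only genes called in H2AZ-AP3 against H2AZ WT on both days, or among the 4 with the highest mean, were to be named. Sall3, Sox2ot, Gdf3, Nkx2-5 and the markers Afp, Ttr, Postn, Fgf5 and Mesp1 were named besides, after their values were seen. Alternatives were pseudocounts of 0.1 and 1, a filter at 1 RPKM, 3 scalings, a 2-fold threshold, summing entries per symbol and depth from transcripts over 2 kb. After seeing the data, leaving out the joint Nanog entry and a filter at a mean of 20 RPKM were added. Trophectoderm and neural markers were at sums of 4.32 to 8.14 and 12.2 to 24.0 RPKM. The scripts were tested on simulated data, with Python 3.11.15, numpy 2.4.6, pandas 2.3.3 and matplotlib 3.10.9.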

Additional observations from a re-analysis of the deposited data

Results flagged for a closer look

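Log2 changes of Sox2 and Dppa2 had opposite signs in 2 lines or on 2 days under the same contrast, with over 1.5-fold between them. Most of the single values did not pass 1.5-fold, and none of these differences was tested. Sox2 in H2AZ-AP3 against the library labelled H2AZ KD was at -0.84 in ESCs and at 0.19 in EBs. From ESCs to EBs it was at -0.041 in H2AZ WT and -0.48 in the line labelled H2AZ KD, against 0.55 in H2AZ-AP3. The summed neural markers went from 15.5 to 18.4, from 17.2 to 13.4 and from 12.2 to 24.0 RPKM in the same lines. Their part in the Sox2 values was not tested. The values of -0.84 and 0.55 share the low Sox2 level of the H2AZ-AP3 ESC library. Dppa2 in H2AZ-AP3 against H2AZ WT was at -0.31 in ESCs and 0.36 in EBs, and against the library labelled H2AZ KD at -0.36 and 0.66. From ESCs to EBs it was at -0.47 in H2AZ WT and -0.81 in the line labelled H2AZ KD, against 0.21 in H2AZ-AP3. Under scaling on the control genes Sox2 in EBs was at -0.02 against the library labelled H2AZ KD and Dppa2 in H2AZ-AP3 was at -0.14 from ESCs to EBs, so that these opposite signs depend on the scaling.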

How the results depend on the processing

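The 2 members called in H2AZ-AP3 ESCs against either other line were called under both other pseudocounts, the filters and the 3 scalings, and none of the 6 called changes reversed under an alternative. At 2-fold, 0 members were called in each of the 4 comparisons that had a call. Without the joint Nanog entry 1 was called in each D0 comparison of H2AZ-AP3. Centring on the median ratio gave 2 in D3 against D0 of the line labelled H2AZ KD. Rescaling to a common sum gave 0 in H2AZ-AP3 against that line at D3, 1 in D3 against D0 of H2AZ WT and 2 in the line labelled H2AZ KD. Scaling on 5 control genes gave 1 in H2AZ-AP3 against H2AZ WT at D3, 0 against the library labelled H2AZ KD at D3, 3 in D3 against D0 of that line and 2 in H2AZ-AP3. That scaling shifted the log2 changes by -0.32, -0.20, -0.15 and -0.35 in these 4 comparisons and by -0.12 in the library labelled H2AZ KD against H2AZ WT at D3, and the common sum shifted D3 against D0 of H2AZ WT by -0.14 and H2AZ-AP3 against the library labelled H2AZ KD at D3 by -0.11. By construction, the shifts follow from the levels of the control genes and from the summed RPKM of the libraries. In H2AZ-AP3 against H2AZ WT at D3 the 5 control genes had log2 changes from 0.04 (Cltc) to 0.58 (Gapdh). Why these levels differed was not tested.

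Calls over all entries depended on low values. In H2AZ-AP3 against H2AZ WT ESCs 5412 entries were called, against 3561 and 1035 with pseudocounts of 0.1 and 1, 1685 among entries reaching 1 RPKM in either library, 200 among those averaging 20 RPKM or more and 3291 at 2-fold, and the other comparisons moved in the same direction. The depth of the H2AZ WT ESC library was 16.6 M reads from transcripts over 1.5 kb and 34.4 M from those over 2 kb, near a multiple of the first, while the others moved by little. Differences between cultures are not measured at any depth here. The labels give no replicate numbers, and no fit with line as a block was run.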
